A study of Mus musculus with 7 samples.

Results

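Matrix metalloproteinases (Mmp genes), ADAMTS proteases (Adamts genes), ADAMTS-like proteins (Adamtsl genes) and tissue inhibitors of metalloproteinases (Timp genes) were followed in mouse basal cell carcinoma. Members were all probe sets assigned to exactly 1 gene whose symbol is Mmp, Adamts, Adamtsl or Timp followed by a number. This gave 76 of 34945 single-gene probe sets, which represent 40 of 18193 genes: 16 Mmp, 15 Adamts, 5 Adamtsl and 4 Timp genes. The choice used names and no measured value. There were 7 Affymetrix arrays. Basal cell carcinoma dissected from mice was hybridised to 2 of them, normal epidermis of newborn (P0) mice to 2, and PDKC1, a cell line from mouse basal cell carcinoma, to 3. For PDKC1, 1 array was of cells before treatment (0 h), and 1 each was of cells kept for 6 h or 10 h in cyclopamine, an alkaloid that blocks Smoothened, the signal transducer of the Hedgehog pathway. The labels give no genotype or strain for any group, no age for the tumours, and no dose or vehicle for cyclopamine. Nothing states that the replicates are different animals; the p-values below therefore reflect only how far these particular samples spread, and that spread may be technical.

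The Mmp and Adamts genes encode zinc proteases that cut collagens, proteoglycans and other proteins outside the cell. They are made as inactive proenzymes and are blocked by the TIMP proteins; the TIMPs differ in which proteases they inhibit best. ADAMTS-like proteins share the ancillary domains of the ADAMTS proteases but have no protease domain, and several bind to microfibrils. In skin, connective tissue cells, keratinocytes at a wound edge and leukocytes each make their own set of these proteins.

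Values were signal intensities, 1 per probe set and array. The brightest probe set of a gene, by its mean over the arrays, stood for the gene unless stated otherwise. Precision is limited by the small number of arrays. The intensity of the median probe set was 118.4 and 128.2 on the tumour arrays, 71.2 and 75.5 on the epidermis arrays, and 72.4 to 78.3 on the PDKC1 arrays. The control probe sets of Actb had a ratio of 3' over 5' intensity of 11.3 and 93.1 in the tumours, 3.98 and 2.84 in the epidermis, and 1.15 to 1.21 in PDKC1. Those of Gapdh had 10.6 and 15.4 in the tumours, 5.27 and 4.52 in the epidermis, and 0.699 to 0.741 in PDKC1. For both genes, the 5' signal relative to the 3' signal was weakest in tumour 2, but by Gapdh the tumours lay closer together. The tissue arrays used 100 ng of RNA each and the PDKC1 arrays 2000 ng. Amount of RNA and source, and likewise age and source for the newborn epidermis, cannot be told apart. In the dissected tissues, fewer cells of a type and less RNA per cell cannot be told apart either.

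**Figure D1:**
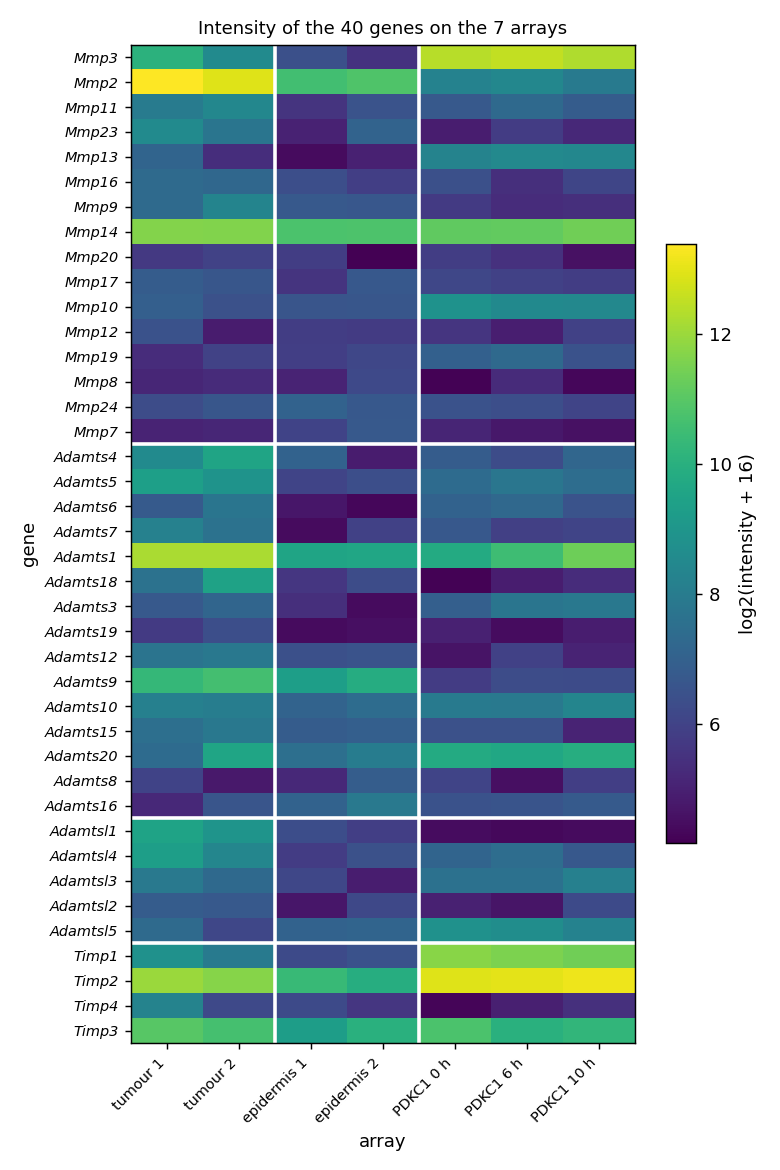
Colour gives log2(intensity + 16) for each of the 40 genes (rows, grouped as Mmp, Adamts, Adamtsl and Timp, and ordered within a group by the tumour minus epidermis difference) on each of the 7 arrays (columns). Colours compare arrays within a row; Mmp3 and Timp1 are brightest in the PDKC1 columns, and Mmp2 and Adamtsl1 in the tumour columns.

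The comparison of tumour with epidermis asked how this family differs between carcinoma tissue and normal epidermis. Members called by limma at an adjusted p under 0.05 were all higher in the tumours: 19 of 40 were higher and 0 lower. Over all genes, 16.6 percent were called higher and 12.5 percent lower. By class, 4 of 16 Mmp, 9 of 15 Adamts, 3 of 5 Adamtsl and 3 of 4 Timp genes were higher. Median centring of the arrays moved the median difference of all genes from 0.09 to -0.31. Under centring, 14 members were higher and 2, Adamts16 and Mmp7, lower. Then 10.9 percent of all genes were higher, and 3856 of 18193 were lower. At an unadjusted p under 0.05, 24 members were higher and 2 were lower, where 4121 and 3224 of 18193 genes were. The median log2 difference, tumour minus epidermis, was 1.33 over the members, against 0.09 over all genes; it was 0.86 for Mmp, 1.57 for Adamts, 2.12 for Adamtsl and 1.51 for Timp genes. Both tumour arrays lay above both epidermis arrays for 27 members and below them for 3, where all genes gave 35.8 and 29.8 percent. Fewer members were called with a single epidermis array: 7 were called higher without epidermis array 1 and 8 without array 2, when 4.62 and 5.30 percent of all genes were called higher. Adamts1, Adamts5, Adamtsl1 and Mmp2 were called higher as reported here and under every one of 14 alternatives in which they were tested.

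**Figure D2:**
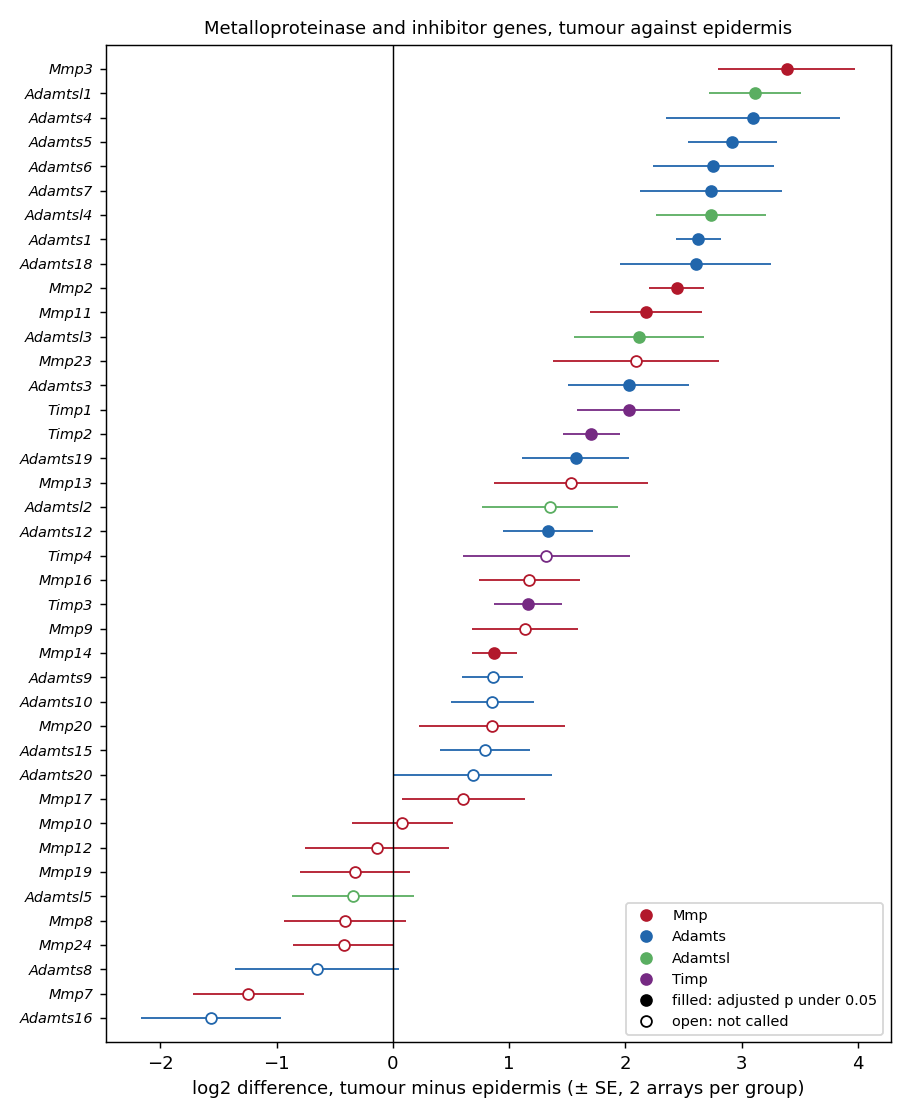
Each point is 1 of the 40 genes, with its log2 difference (tumour minus epidermis, on log2(intensity + 16)) on the horizontal axis and a bar of 1 SE from limma. The 19 filled points, called at an adjusted p under 0.05, lie between 0.87 and 3.39; no gene left of 0 is filled.

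Among the Mmp genes, Mmp2, Mmp3, Mmp11 and Mmp14 were higher in the tumours. Mmp2, the gelatinase of connective tissue cells, had intensities of 10696 and 7855 in the tumours, versus 1541 and 1818 in epidermis. The groups did not overlap, and the log2 difference was 2.44 ± 0.24 (SE, 2 arrays per group; adjusted p = 0.00106), a 5.43-fold difference. Mmp14, the membrane-bound protease that activates the Mmp2 proenzyme, had 3285 and 3198 in the tumours, versus 1730 and 1801 in epidermis. Its difference of 0.87 ± 0.19 (adjusted p = 0.0169) lost its call after median centring of the arrays (0.47, adjusted p = 0.136), when the fit had no variance trend (0.0746), and when epidermis array 1 (0.209) or 2 (0.182) was left out. Mmp3, stromelysin-1, which cuts many matrix proteins and activates other proenzymes, had 1068 and 369 in the tumours, versus 68.3 and 29.2 in epidermis. Its difference of 3.39 ± 0.59 (adjusted p = 0.00687) came from tumours that lay far apart, and it was 2.64 without tumour 1; without epidermis array 2 it was not called (2.94, adjusted p = 0.0547). Mmp11, stromelysin-3, best known from the stroma around carcinomas, had 239 and 329 in the tumours, versus 31.0 and 75.3 in epidermis. The difference was 2.18 ± 0.48 (adjusted p = 0.0163), and 1.70 without epidermis array 1 (adjusted p = 0.121).

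The other 12 Mmp genes were not called. Mmp9, the gelatinase that neutrophils and macrophages store or secrete, had 147 and 301 in the tumours, versus 91.0 and 84.4 in epidermis; the groups did not overlap (log2 difference 1.13, adjusted p = 0.111), and it was called without tumour 1. Mmp13, the main interstitial collagenase of the mouse, had 124 in tumour 1 and 25.5 in tumour 2, against 5.40 and 16.5 (1.53, adjusted p = 0.133). It was called without tumour 2; 1 epidermis value lay below the pseudocount. Mmp7, matrilysin, an epithelial protease, lay the other way, at 18.0 and 19.9 in the tumours, versus 48.1 and 90.9 in epidermis (-1.24, adjusted p = 0.0972). After median centring Mmp7 was called lower (adjusted p = 0.0389). Mmp8, the collagenase of neutrophils, had 19.4 and 23.2 against 17.6 and 57.2, and the groups overlapped. Mmp10, Mmp12, Mmp17, Mmp19 and Mmp20 also overlapped between the tissues, with intensities from 1.90 to 107.3, and their brightest tissue array lay under that array's median probe set. Mmp24 had lower values in both tumours, at 62.3 and 82.8 against 116.6 and 88.9 (adjusted p = 0.527). Mmp16 and Mmp23 are described with their other probe sets.

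Of the ADAMTS proteases that cut the large proteoglycans, Adamts1, Adamts4 and Adamts5 were higher. Adamts1, which cuts versican and aggrecan and carries thrombospondin repeats, was nearly equal in the tumours at 4779 and 4771, against 737 and 780 in the epidermis. Its difference was 2.63 ± 0.20 (adjusted p = 0.000613), 6.19-fold. Adamts5, an aggrecanase, had 653 and 458 in the tumours, versus 49.9 and 67.9 in epidermis (2.92 ± 0.38, adjusted p = 0.00257). Its neighbour on chromosome 16 is Adamts1. Adamts4, the other classical aggrecanase, had 366 and 731 in the tumours, while the epidermis arrays stood apart from each other at 118.6 and 12.9. The difference of 3.10 ± 0.75 (adjusted p = 0.0226) was 1.99 without epidermis array 2 (adjusted p = 0.0883), and it was also not called with quantile normalization (0.0504), without a variance trend (0.0526) or without tumour 2 (0.0588). Adamts9, a versican-cutting protease of developing skin, had 1251 and 1549 against 634 and 913 (0.86, adjusted p = 0.0520). Adamts15 had 167.5 and 218.4 against 99.7 and 108.0 (0.79, adjusted p = 0.178). Adamts20, which acts in melanoblast migration, was far apart in the tumours, at 150 and 747, with 170 and 247 in the epidermis (0.69, adjusted p = 0.514); without tumour 1 it was called higher (1.79, adjusted p = 0.00509). Adamts8 overlapped between the tissues (48.4 and 11.9 against 21.6 and 102.5).

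Among the remaining Adamts genes, 6 were higher. Adamts3, which removes the N-terminal propeptide of collagens and activates the lymphatic growth factor VEGF-C, had 91.8 and 126.9 in the tumours, versus 26.6 and 5.70 in epidermis (2.03 ± 0.52, adjusted p = 0.0277). Adamts7 and Adamts12, a related pair that can cut cartilage oligomeric matrix protein, were both higher. Adamts7 had 279 and 184 against 5.60 and 45.6 (2.74 ± 0.61, adjusted p = 0.0167). Adamts12 had 196 and 219 against 70.3 and 75 (1.33 ± 0.39, adjusted p = 0.0422). Adamts6 had 94.5 and 200.0 against 10.4 and 3.80, a difference of 2.76 ± 0.52 (adjusted p = 0.00937). Adamts6 acts, with its relative Adamts10, on microfibrils; Adamts10 had 272 and 251 against 119.9 and 156.7 and was not called (0.86, adjusted p = 0.121). Adamts18 had 186 in tumour 1 and 696 in tumour 2 against 33.0 and 63.1 (2.61 ± 0.65, adjusted p = 0.0251). Adamts19 was dim throughout, at 36.8 and 66.5 against 5.40 and 7.0 (1.57 ± 0.46, adjusted p = 0.0427); with epidermis levels under the pseudocount of 16, which sets its size, the difference was 0.71 with a pseudocount of 64. The epidermis levels of Adamts6 and of 1 array each of Adamts3, Adamts4, Adamts7 and Adamtsl3 were also under 16. Adamts16 lay in the other direction, at 21.8 and 81.5 in the tumours, versus 118.6 and 223.4 in epidermis (-1.56, adjusted p = 0.0963). It was called lower with quantile normalization (adjusted p = 0.0493), with centring (0.0387) and with a replicate block (0.0451). With the mean of its probe sets it was not called (-0.76, adjusted p = 0.272). The other Adamts16 probe set had 42.8 and 66.0 in the tumours, versus 49.1 and 54.2 in epidermis (0.04). The Adamts16 difference was -2.25 without tumour 2 and -0.88 without tumour 1.

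These calls differed in how they held. Adamts12 was not called with quantile normalization (adjusted p = 0.125), centring (0.129), the mean of all probe sets (0.126), a replicate block (0.0617), or without any 1 of the 4 arrays (0.0610 to 0.209). Adamts19 lost its call with centring (0.122), a pseudocount of 64 (0.0504), a replicate block (0.0501), and without tumour 2 (0.118) or epidermis array 1 (0.180) or 2 (0.155). Adamts18 lost it with quantile normalization (0.0580), without a variance trend (0.0506), and without tumour 2 (0.0637) or epidermis array 1 (0.143) or 2 (0.0787). Adamts3 lost it with centring (0.0565), the mean of all probe sets (0.145), and without tumour 2 (0.0699) or epidermis array 1 (0.0612) or 2 (0.173). Adamts6 was not called without either epidermis array, and Adamts7 not without array 1.

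The ADAMTS-like genes Adamtsl1, Adamtsl3 and Adamtsl4 were higher. Adamtsl1 (punctin) had 708 and 478 in the tumours, versus 64.7 and 43.2 in epidermis (3.11 ± 0.39, adjusted p = 0.00235). Adamtsl4, which binds fibrillin-1 microfibrils and is linked to lens ectopia, had 622 and 317 against 39.1 and 70.9 (2.74 ± 0.47, adjusted p = 0.00691). Adamtsl3 had 223 and 145 against 53.1 and 13.5 (2.12 ± 0.56, adjusted p = 0.0306); it was not called with quantile normalization, nor without tumour 1 or either epidermis array. Adamtsl4 was not called without epidermis array 1. Adamtsl2, a microfibril protein that modulates TGF-beta availability, did not overlap between the tissues, at 98.5 and 90.1 against 10.2 and 55.3, but was not called (1.35, adjusted p = 0.134). Adamtsl5 had 149.2 and 53.7 against 117.1 and 123.7, and the groups overlapped (-0.35). The other Adamtsl5 probe set had 262 and 158 in the tumours, versus 88.7 and 57.1 in epidermis (1.33, not called).

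Of the inhibitors, Timp1, Timp2 and Timp3 were higher in the tumours. Timp2, which both inhibits Mmp2 and helps Mmp14 to activate it, had 4086 and 3338 in the tumours, versus 1322 and 951 in epidermis (1.71 ± 0.25, adjusted p = 0.00361). Timp1, an inducible inhibitor of most secreted MMPs, had 437 and 230 against 58.9 and 73.5 (2.03 ± 0.44, adjusted p = 0.0159). Timp3, which is bound to the matrix and also inhibits ADAMTS4 and ADAMTS5, had 2005 and 1615 against 619 and 1017 (1.16 ± 0.29, adjusted p = 0.0260). In each of these genes both tumours lay above both epidermis arrays. Without epidermis array 2 none of the 3 was called (adjusted p = 0.0834 for Timp1, 0.0660 for Timp2 and 0.0682 for Timp3), and without array 1 Timp1 (0.114) and Timp3 (0.248) were not; Timp3 was also not called with centring (0.0601) or without a variance trend (0.0770). Timp4, the inhibitor of heart and muscle, had 295 in tumour 1 and only 58.0 in tumour 2, versus 58.9 and 33.3 in epidermis. Its groups overlapped (1.32 ± 0.72, adjusted p = 0.226). Without tumour 2 it was called (2.36, adjusted p = 0.0159), and without tumour 1 the difference was 0.28. The 6 skeletal muscle markers summed to 13266 in tumour 1 and to 2868 in tumour 2, against 187 and 255 in the epidermis, 3 of the 6 were called higher and none was at 0. Myh1, Myh4 and Acta1 made up most of the sum, and Ckm lay the other way, at 21.5 in tumour 1 and 115.3 in tumour 2. Their part in the Timp4 values was not tested. The second Timp4 probe set had 11.7 in tumour 1 and 37.0 in tumour 2, versus 80.8 and 18.9 in epidermis (-0.60, not called). It thus differed in the other direction, both between the tissues and between the tumours. In the RefSeq annotation of GRCm38.p6, Timp1, Timp3 and Timp4 lie within the synapsin genes Syn1, Syn3 and Syn2, and Timp2 within none.

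For 21 members with several probe sets, the signals of 1 gene could be set side by side. In a fit over all 34945 single-gene probe sets, 31 of the 76 member probe sets were higher and 0 lower; over all probe sets 16.6 percent were higher. All probe sets of a gene had a positive difference in 11 of the 21 genes, and both signs occurred in 10. Mmp23, Adamts9 and Mmp16 were not called by their brightest probe set, but at least 1 other probe set of each was higher. For Mmp23, which encodes an atypical membrane-anchored MMP, its other probe set had 698 and 861 in the tumours, versus 14.1 and 3.60 in epidermis (5.03 ± 0.44, adjusted p = 0.000846), while the brightest had 370 and 199 against 17.4 and 121.5 (2.09, adjusted p = 0.0694). Both epidermis values of that second probe set were below 16, so the pseudocount sets the size. For Adamts9 a further probe set had 1062 and 2356 against 113.1 and 132.9 (3.53 ± 0.40, adjusted p = 0.00160). The remaining Adamts9 probe set was also higher, at 260 and 273 against 44.3 and 90.9 (1.81 ± 0.44, adjusted p = 0.0237). For Mmp16, a membrane-type MMP, a further probe set had 282 and 303 against 47.8 and 26.0 (2.57 ± 0.44, adjusted p = 0.00630). Adamts5 was higher in 3 of 4 probe sets, Adamts18 in 2 of 3, Mmp2, Adamts4 and Adamts6 in both, and the remaining Adamts5 probe set was dim, at 15.9 to 22.7 in the tissues. Adamtsl1 was higher in 1 of 3. Its other probe sets (0.99 and 1.43, not called) differed 8.56-fold and 3.19-fold in plain intensity between the tumours. Adamts3 was higher in 1 of 2, with the other at -0.14, and Adamts12 in 1 of 2, with the other at 0.64.

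Probe sets of Timp2 and Mmp14 went apart. Of 6 Timp2 probe sets 2 were higher. Another had 768 in tumour 1 and 28.5 in tumour 2. That is a 26.9-fold ratio of plain intensity between the tumours, where the brightest Timp2 probe set differed 1.22-fold. Of 3 Mmp14 probe sets 1 was higher, and another had 245 in tumour 1 and only 78.2 in tumour 2, versus 221 and 328 in epidermis (-0.87, adjusted p = 0.293). Tumour 2 had the highest 3' over 5' ratios, 93.1 for Actb and 15.4 for Gapdh, against 11.3 and 10.6 in tumour 1. The part of RNA quality in these probe set values was not tested. With the mean of all probe sets in place of the brightest, Timp2 (0.77, adjusted p = 0.188) and Mmp14 (0.04, adjusted p = 0.938) were not called. In that setting Adamts9 (2.07, adjusted p = 0.00479), Mmp23 (3.56, 0.00193) and Mmp16 (1.28, 0.0463) were called higher.

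**Figure D3:**
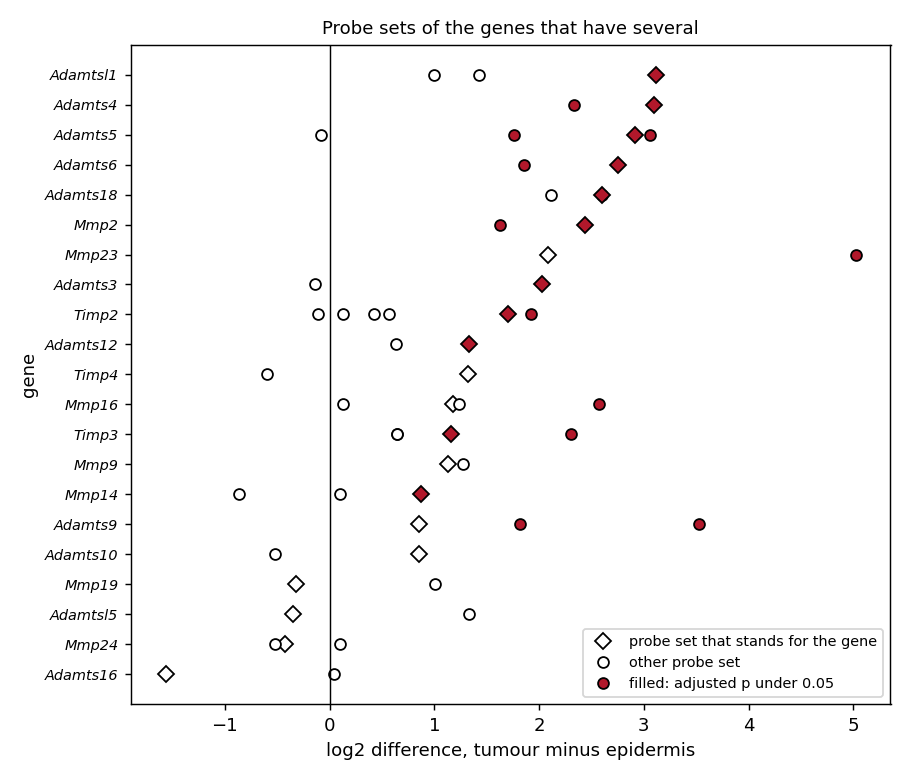
Each point is 1 probe set of a gene that has several, with its log2 difference (tumour minus epidermis) on the horizontal axis; diamonds stand for the gene in the gene-level fit and filled points had an adjusted p under 0.05. The filled Mmp23 point at 5.03 lies far from the open diamond at 2.09, and the 6 Timp2 points spread from -0.11 to 1.92.

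With 1 array per time, the PDKC1 line was set beside the tissues without a test, by rules chosen after the values were seen. At 0 h, 5 of 40 members lay at least 2-fold above the highest of the 4 tissue arrays (6.80 percent of all genes did so): Mmp3, Mmp10, Mmp13, Timp1 and Adamtsl5. For Adamtsl5 this held for its brightest probe set, at 439. Its other probe set had 169 in PDKC1 at 0 h, below the 262 of tumour 1. Mmp3 was at 5329 in PDKC1 at 0 h, where the tumours had 1068 and 369. Timp1 was at 3433, 7.61-fold above the highest tissue array. Mmp10, stromelysin-2, was at 447, where the 4 tissue arrays had 72.2 to 107.3, and Mmp13 at 296. In the other direction, 15 of 40 members lay at least 2-fold below the lower tumour array (22.3 percent of all genes). Mmp2 was at 290 in PDKC1 at 0 h, 25.7-fold below the lower tumour, and Adamts9 at 40.2. Adamtsl1 (6.10), Adamts18 (2.70), Adamts12 (9.0), Mmp23 (13.5) and Timp4 (3.30) were under the pseudocount there. By their brightest probe sets, Mmp14 (2256) and Timp3 (1717) were within 2-fold of both tumours, and Timp2 was at 7834. Both other Mmp14 probe sets were brighter in PDKC1 before treatment, at 1460 (tumours 245 and 78.2) and 205 (tumours 60.9 and 68.9). Other Timp3 probe sets read 558 (tumours 73.3 and 49), 654 (tumours 284 and 448) and 1373 (tumours 2024 and 2127). Only the last of these Timp3 probe sets was within 2-fold of both tumours. The part of the 3' over 5' ratio in these values was not tested.

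Mmp3, Mmp10 and Mmp13 belong to a run of 10 neighbouring protein-coding genes on chromosome 9, all Mmp genes, of which 7 are members. In order they are Mmp13, Mmp12, Mmp1b, Mmp3, Mmp1a, Mmp10, Mmp8, Mmp27, Mmp20 and Mmp7. The other 4 members of the run were dim in PDKC1 at 0 h: Mmp12 was at 32.1, Mmp8 at 2.60, Mmp20 at 41.4 and Mmp7 at 18.9. Neighbouring genes of the run thus stood on both sides of the median probe set of 78.3. Promoters of this run are shown because AP-1 (Fos and Jun dimers) is a textbook regulator of stromelysin and collagenase genes through the motif TGANTCA. RefSeq promoter windows (build GRCm38.p6, 250 bases before to 50 after the start site) were at hand for 25 of the 40 members. TGANTCA, which reads the same on both strands, was found in 6 of the 25 genes, against 8.97 percent of 27025 genes. All 6 were in the chromosome 9 run (6 of its 7 members), and 0 of the 18 other members had it. The motif TATAAA, searched on both strands, was in 9 of the 25, against 15.7 percent of genes. A GLI motif, GACCACCCA on both strands, was in 0 of 25, against 0.289 percent of genes; this says only that these letters are not in these windows. The windows of Mmp3, Mmp10 and Mmp13, bright in PDKC1, are followed by that of Mmp7. Mmp7 is 1 of the 3 members of the run that hold the motif and were dim there. The window of Adamts1, described with the cyclopamine time course, comes last. Capitals mark TGANTCA and TATAAA; the sequences run 5′ to 3′ on the strand of the gene.
Mmp3 promoter, chr9:7445572-7445871, plus strand: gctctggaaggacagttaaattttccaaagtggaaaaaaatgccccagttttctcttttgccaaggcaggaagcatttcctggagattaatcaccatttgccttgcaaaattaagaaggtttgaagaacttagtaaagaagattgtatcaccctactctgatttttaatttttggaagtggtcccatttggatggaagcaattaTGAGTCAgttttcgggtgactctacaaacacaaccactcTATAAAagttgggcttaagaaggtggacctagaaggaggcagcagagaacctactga
Mmp10 promoter, chr9:7502092-7502391, plus strand: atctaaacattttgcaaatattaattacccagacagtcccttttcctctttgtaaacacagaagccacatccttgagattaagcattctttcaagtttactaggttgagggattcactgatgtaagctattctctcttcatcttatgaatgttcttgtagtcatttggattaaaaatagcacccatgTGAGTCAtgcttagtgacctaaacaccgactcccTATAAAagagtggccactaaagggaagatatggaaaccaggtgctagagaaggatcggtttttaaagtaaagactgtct
Mmp13 promoter, chr9:7272264-7272563, plus strand: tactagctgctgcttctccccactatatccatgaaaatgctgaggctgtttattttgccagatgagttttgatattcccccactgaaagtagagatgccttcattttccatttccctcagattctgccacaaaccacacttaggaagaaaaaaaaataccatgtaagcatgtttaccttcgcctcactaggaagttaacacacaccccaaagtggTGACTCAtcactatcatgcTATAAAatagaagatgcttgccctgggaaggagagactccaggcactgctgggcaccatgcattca
Mmp7 promoter, chr9:7691840-7692139, plus strand: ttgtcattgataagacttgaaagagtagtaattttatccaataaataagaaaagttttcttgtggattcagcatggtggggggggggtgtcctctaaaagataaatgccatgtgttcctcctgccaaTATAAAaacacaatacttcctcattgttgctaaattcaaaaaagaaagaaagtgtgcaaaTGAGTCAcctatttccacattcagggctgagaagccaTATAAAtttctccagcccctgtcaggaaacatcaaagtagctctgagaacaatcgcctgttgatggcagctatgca
Adamts1 promoter, chr16:85803064-85803363, minus strand: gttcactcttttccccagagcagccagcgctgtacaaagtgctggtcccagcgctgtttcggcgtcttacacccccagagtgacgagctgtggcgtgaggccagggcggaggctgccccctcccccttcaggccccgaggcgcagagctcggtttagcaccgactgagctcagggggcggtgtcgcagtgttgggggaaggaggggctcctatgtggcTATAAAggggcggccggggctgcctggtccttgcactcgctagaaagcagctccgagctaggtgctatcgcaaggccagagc

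In these windows the AP-1 motif began 46 bases before the annotated start site in Mmp3, 63 in Mmp10, 35 in Mmp13 and 63 in Mmp7, and it read TGAGTCA in Mmp3, Mmp10 and Mmp7 and TGACTCA in Mmp13. TATAAA followed it in each, at 7, 29, 16 and 26 bases before the start site. The Mmp7 window held a further TATAAA ahead of the AP-1 motif, at 123 bases before the start site. Adamts1 had TATAAA at 32 bases and no TGANTCA. Among the 7 members of the run, the motif was in the 3 that were bright in PDKC1 (Mmp3, Mmp10 and Mmp13). It was also in 3 that were dim there (Mmp7, Mmp12 and Mmp20). Mmp1a, Mmp1b and Mmp27, also in the run, are not members and were not counted.

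The cyclopamine time course set PDKC1 cells after 6 h and 10 h in cyclopamine beside cells at 0 h. No array was of cells kept for 6 h or 10 h without cyclopamine. Cyclopamine and time in culture therefore cannot be told apart. Hedgehog targets had lower values on the treated arrays: Gli1 went from 842 at 0 h to 193 and 190 at 6 h and 10 h, and Ptch1 from 2185 to 686 and 550. Of the 22 members whose brightest PDKC1 array was over its median probe set, 0 were at least 2-fold higher and 0 at least 2-fold lower at both 6 h and 10 h, where 0.916 and 1.01 percent of 11566 genes were. These are single arrays, so the differences have no replicate check. The median log2 difference of the 22 was 0.08 at 6 h and 0.09 at 10 h, against -0.01 and 0.01 for all genes over the filter.

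Adamts1 differed most from 0 h among the 22 at 10 h, but not at 6 h, where Adamts7 (-0.79) and Adamts3 (0.77) differed by more than its 0.75. It had an intensity of 870 at 0 h, 1473 at 6 h and 2582 at 10 h, 1.68-fold and 2.93-fold the value at 0 h. It was the only 1 of the 22 at least 2-fold higher at 10 h (2.10 percent of genes were), and 0 were at least 2-fold lower (2.71 percent). Of 11566 genes 90 had a log2 difference at 10 h at least as large, and over quantile normalization, centring and pseudocounts of 4 and 64 it stayed between 1.5 and 1.57. The other 21 members lay between -0.62 and 0.89 at 10 h. Adamts1 has 1 probe set, so no second one bears on this value. At 10 h its intensity was still under both tumours (4779 and 4771).

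At a threshold of 1.5-fold at both times, Adamts1 and Adamts3 were higher (2.55 percent of genes) and Adamts7 was lower (2.83 percent). Adamts3 had 108.9, 196.9 and 215.3 at 0 h, 6 h and 10 h. Its second probe set was dim, from 24.9 to 3.70. Adamts7 had 87.0, 43.5 and 51.2. Timp3 had 1717, 1030 and 1202, and all 4 of its probe sets were lower than 0 h at both times, by log2 differences of -0.42 to -0.73. Mmp3 (5329, 5876 and 4929), Mmp13 (296, 346 and 332), Mmp14 (2256, 2285 and 2645) and Timp2 (7834, 8289 and 9072) stayed within 1.5-fold of 0 h. Timp1 had 3433, 3039 and 2642. The other 18 members did not pass the filter on level. Some of them showed large ratios between dim values, such as Adamts12 at 9.0, 46.3 and 18.1.

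**Figure D4:**
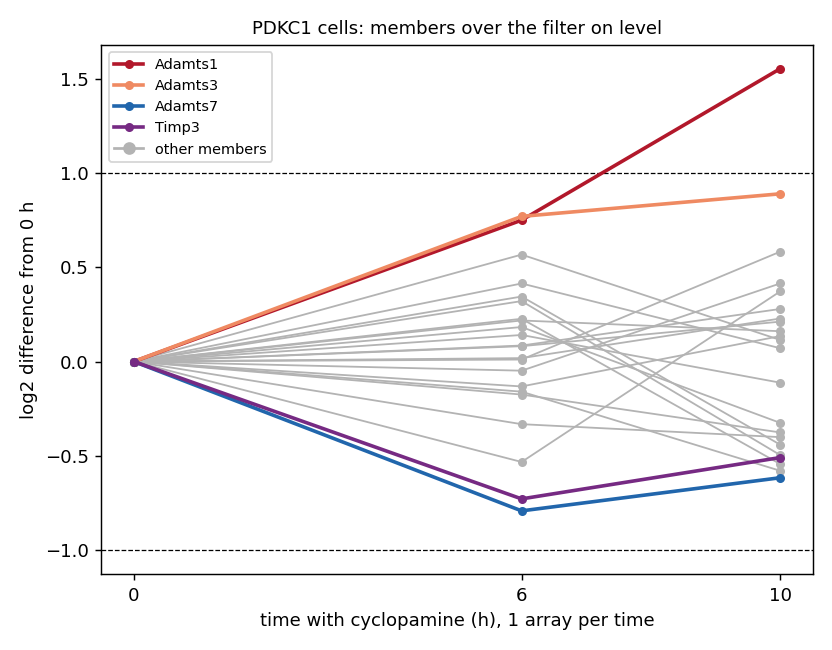
Lines give the log2 difference from 0 h, on log2(intensity + 16), of the 22 members over the filter on level in PDKC1 cells with cyclopamine; dashed lines mark 2-fold, and each time is 1 array. Adamts1 reaches 1.55 at 10 h, and the other 21 lie between -0.62 and 0.89.

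Genes that these proteases cut or that act on them were examined with lists compiled for this tissue. Of 9 fibrillar collagen genes 8 were higher in the tumours and 0 lower (median log2 difference 2.50, against 0.09 for all genes). Col1a1, a chain of type I collagen, had 2993 and 4870 against 269 and 139 (4.19 ± 0.37, adjusted p = 0.000903), Col11a1 differed by 3.58 ± 0.58 and Col1a2 by 3.15 ± 0.36. Of 15 proteoglycan, elastic fibre and microfibril genes 8 were higher and 0 lower (median 2.08). Acan, the aggrecan gene cut by ADAMTS4 and ADAMTS5, had 1445 and 810 against 73.2 and 81.8 (3.56 ± 0.37); Ltbp2, a latent TGF-beta binding protein gene, differed by 3.92 ± 0.36 and the small proteoglycan gene Bgn by 3.64 ± 0.22. Of 5 astacin procollagen proteinase and enhancer genes 2 were higher: Pcolce, the enhancer of procollagen C-proteinase, at 4.77 ± 0.32, and Bmp1, that proteinase, at 1.22 ± 0.24. Of 11 Adam genes, the membrane-bound relatives, 3 were higher: Adam22 (2.15 ± 0.35), Adam33 (1.74 ± 0.45) and Adam9 (0.94 ± 0.20).

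Of 18 measured activators, inhibitors and receptors, 6 were higher and 3 lower (median 0.86). Reck, a membrane-anchored inhibitor of MMPs, had 2067 and 1232 in the tumours against 233.8 and 83 (3.36 ± 0.49, adjusted p = 0.00366). The proprotein convertase genes went apart: Pcsk5 was higher (3.90 ± 0.46) and Pcsk6 lower (-2.91 ± 0.30). Of 15 transcription factor and cytokine genes that can induce metalloproteinases, 1 was higher and 5 were lower (median -0.64). The ETS factor gene Etv4 was higher (2.81 ± 0.54), and the AP-1 gene Fos (-2.75 ± 0.24) and the cytokine gene Il1a (-2.21 ± 0.48) were lower. Jun (-2.14 ± 0.28), Junb and Ets2, named after their values were seen, were lower too. Fos had 3881 and 2827 in the tumours, versus 22027 and 22751 in epidermis. Mmp3 was higher in the tumours and Fos and Jun lower, while the AP-1 genes Fosb, Fosl1, Fosl2 and Jund were not called. The part of AP-1 in the Mmp3 difference was not tested.

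Markers of other cell types were set beside these results. Of 8 fibroblast markers 7 were higher in the tumours and 1, Fbln1, was lower. The list summed to 15198 and 12197 in the tumours, 3220 and 3115 in the epidermis, and 1263 to 1483 in PDKC1. No marker was at 0; in PDKC1 at 0 h Pdgfra, Lum and Fap were under 16, while Fbln1 was at 1051 and S100a4 at 191. Adamtsl1, Adamts12, Adamts18, Mmp23, Timp4 and Mmp8 were also under 16 there, and Mmp2 was at 290. Other members called higher in the tumours were bright in PDKC1 at 0 h, such as Mmp3 (5329), Timp1 (3433) and Timp2 (7834). Of 5 smooth muscle and pericyte markers 4 were higher (sums of 5572 and 3611 against 601 and 547, and 20267 to 23012 in PDKC1, where Acta2 was at 22868 and Rgs5 at 1.30). Of 5 neutrophil markers 2 were higher, S100a8 and S100a9, which keratinocytes can also express; the list summed to 3108 and 9926 in the tumours, 306 and 257 in the epidermis and 114 to 190 in PDKC1. Of 6 mast cell markers 4 were higher (4811 and 5230 against 1213 and 873, and 132 to 160 in PDKC1), of 6 endothelial markers 2 (1400 and 957 against 472 and 321, and 317 to 396 in PDKC1). Of 6 macrophage markers 1 was higher and 1 lower (9101 and 9628 against 8098 and 6640, and 568 to 675 in PDKC1). No marker of these lists was at 0. Of 6 keratinocyte markers 2 were lower and 0 higher; Krt5 and Trp63 were bright in all 7 arrays, while Krt1, of the upper layers, was at 28.3 in PDKC1 at 0 h. The part of each cell type in the metalloproteinase differences was not tested.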

How the data were processed

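Intensities were read from the deposited table of 45101 probe sets on 7 arrays. Per the labels' protocols, RNA was turned into labelled cRNA following Affymetrix. Summarising software: not given in the sources used here. Deposited intensity values are linear, and with 2 percent trimmed at each end their mean was 500.0 on each array, so no further scaling was applied. Left out were 64 control probe sets, 932 that the platform annotation gives more than 1 gene, and 9160 it leaves unnamed. Mmp1a and Mmp1b carry a letter after the number and were not members. Symbols were updated through Entrez identifiers. A gene was represented by whichever of its probe sets had the largest mean of log2(intensity + 16). The tissue comparison used limma 3.58.1 (R 4.3.3, lmFit, eBayes with a variance trend, two-sided, no block), with Benjamini-Hochberg adjustment over 18193 genes. The "adjusted p" is that value. Folds are on the log2(intensity + 16) scale, which understates changes of dim genes. Folds between the 2 tumour arrays are instead plain ratios of intensity. Tables were made with pandas 2.3.3 in Python 3.11.15. PDKC1 arrays were compared without a test at 2-fold, among genes whose brightest array exceeded its median probe set. The fit was tested on simulated data. All members are accounted for; given in full were those called, those 2-fold apart at both times and the Timp genes, and up to 3 called genes per list by size; other genes named were chosen after their values were seen. Alternatives were quantile normalization, centring, pseudocounts of 4 and 64, leaving out genes under the 40th percentile, the mean of probe sets or every probe set, no variance trend, a replicate block, each array left out, a 2-fold minimum and, for PDKC1, 1.5-fold and no filter. The members, lists and rules were chosen with earlier results of these data known. Some genes of the lists were not analysed here.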

Additional observations from a re-analysis of the deposited data

How the results depend on the processing

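The 20 genes given in full (19 called and Timp4) kept their direction under each of the 14 alternatives in which they were tested. Of 40 members, the count called higher by limma was 14 to 19 with quantile normalization, centring, either pseudocount, dim genes left out (20 members tested), a 2-fold minimum, no variance trend, the mean of probe sets or a replicate block. With every probe set on its own, 31 member probe sets were higher, 23 of them of proteases. Leaving out 1 tissue array gave 7 to 20 members higher (5 to 15 proteases, against 13) and 0 to 1 lower; the lone array of an arm is then assumed to vary like the other groups. The count called lower, 0 as reported, was 1 with quantile normalization, 2 with centring and 1 with a replicate block. Centring moved the median of all genes from 0.09 to -0.31, and calls over all genes from 3015 higher and 2267 lower to 1981 and 3856. The replicate block gave 19 higher. Same-numbered arrays did not deviate together (r = -0.001 over genes). With 2 arrays per group this cannot tell whether the numbers pair the samples. In PDKC1 at 1.5-fold, 2 members were higher and 1 lower at both times, against 0 and 0 at 2-fold; other settings gave 0. The cause of these changes was not tested. With 2 arrays per tissue and 1 per time, precision is low, and for 9 members even the brightest tissue array lay under its median probe set.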

Other observations

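The collagenase genes Mmp1a and Mmp1b, which lie in the chromosome 9 run but carry a letter after the number, were dim in the tissues. Mmp1a had 40.7 and 11.1 in the tumours, 40.7 and 32.2 in the epidermis, and 136, 215 and 114 in PDKC1 at 0 h, 6 h and 10 h. Mmp1b had 35.2 and 6.8 in the tumours, 16.3 and 36.3 in the epidermis, and 68.0, 36.9 and 18.9 in PDKC1.

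Several relatives and partners of the family were brighter in PDKC1 than in any tissue array, chosen here after their values were seen and without a test. Adam12, a membrane protease of mesenchymal and muscle cells, was at 5241 in PDKC1 at 0 h, with 105 to 309 in the 4 tissue arrays. Tll1, an astacin procollagen proteinase, was at 2148 in PDKC1 at 0 h, with 30.3 to 75.1 in the tissue arrays. Thbs1, which binds MMPs and activates latent TGF-beta, was at 4645 against 75.8 to 223. Bsg, an inducer of MMPs on the surface of tumour cells, was at 10440 in PDKC1 at 0 h, while it was lower in the tumours (550 and 224) than in the epidermis (1586 and 1976; log2 difference -2.28, adjusted p = 0.00809).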
